A study of Homo sapiens with 6 samples.

Results

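Secreted Wnt antagonists are extracellular proteins that keep Wnt ligands from signalling, and the 10 genes described here encode the SFRP, DKK and WIF1 proteins. They were found by matching the Ensembl identifiers of the count data to the symbols FRZB, SFRP1, SFRP2, SFRP4, SFRP5, DKK1, DKK2, DKK3, DKK4 and WIF1 in GENCODE 44, and each symbol matched 1 of the 19977 genes counted. Bulk RNA was sequenced from NCRM-1, an established human iPSC line of wild type genotype, cultured as aggregates in vertical wheel bioreactors for 4 days, with 50% of the medium exchanged on day 2. The medium was E8 for all 6 samples, and 3 samples received polyethylene glycol at 10 mg/ml together with heparin sodium salt at 0.1 µg/ml (PEG and HS), whereas 3 samples were grown without additives (Control). The labels describe 1 bioreactor for each medium in the singular, so medium and vessel cannot be told apart and p-values measure only the spread between these samples, which may be technical. A treatment text naming both additives is also attached to the Control samples, and the treatment field of each sample was followed.

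Wnt ligands signal by bringing a Frizzled receptor together with the co-receptor LRP5 or LRP6, which stabilizes beta-catenin. SFRP proteins carry a cysteine-rich domain related to the ligand-binding domain of Frizzled and bind Wnt ligands outside the cell, and WIF1 binds Wnt ligands through a domain of its own. Some DKK proteins act on the co-receptor: DKK1 binds LRP5 and LRP6 and also Kremen receptors. In the early embryo, antagonists of these families are made in anterior tissue, where low Wnt activity accompanies the formation of the forebrain.

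Libraries held 26991279 to 36185138 counts on genes. Levels are given as CPM, counts relative to library size after TMM scaling (factors 0.994 to 1.006), a unit with no correction for transcript length. Fold changes are PEG and HS over Control, so positive log2 values mean more transcript with the additives. Of the 10 antagonist genes, 8 reached the 10 counts over the 6 libraries that testing required. A gene was called at an adjusted p under 0.05 from the quasi-likelihood test of edgeR, adjusted over all 16505 genes tested, of which 25.3% were called. The pluripotency genes DNMT3B, POU5F1 and LIN28A were abundant in both media, at 2239 ± 26.4, 1922 ± 27.8 and 1346 ± 63.7 CPM (SD, n = 3) with the additives and at 2216 ± 26.7, 1635 ± 27.9 and 1658 ± 15.2 CPM in Control. Of 9 pluripotency genes, 5 were called higher, NANOG among them (log2 fold change 0.55), and 2 lower, SOX2 (-0.59) and LIN28A (-0.30), and the summed level of the 9 was 8847 to 9034 CPM in PEG and HS and 8457 to 8583 CPM in Control.

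The balance of the secreted Wnt antagonists differed between the media. FRZB fell to 0.189 of its Control level, SFRP1 and DKK1 fell as well, and SFRP2 rose. Of the 8 tested members, 3 were called lower and 1 higher, where 13.1% of all tested genes were called lower and 12.2% higher. In CPM the 2 media were separated without overlap in these 4 of the 8 tested members, and in 39.3% of all tested genes. The median log2 fold change of the 8 tested members was -0.60, and that of all tested genes 0.0031. The median absolute log2 fold change was 0.60 in the members and 0.12 in all tested genes. The genes compared were not matched for level. SFRP5, DKK1, DKK2 and WIF1 had only 370, 93, 51 and 139 counts in all, and fold changes from few counts vary widely. The member median falls between SFRP1 and SFRP5, and SFRP5 was not called.

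**Figure D1:**
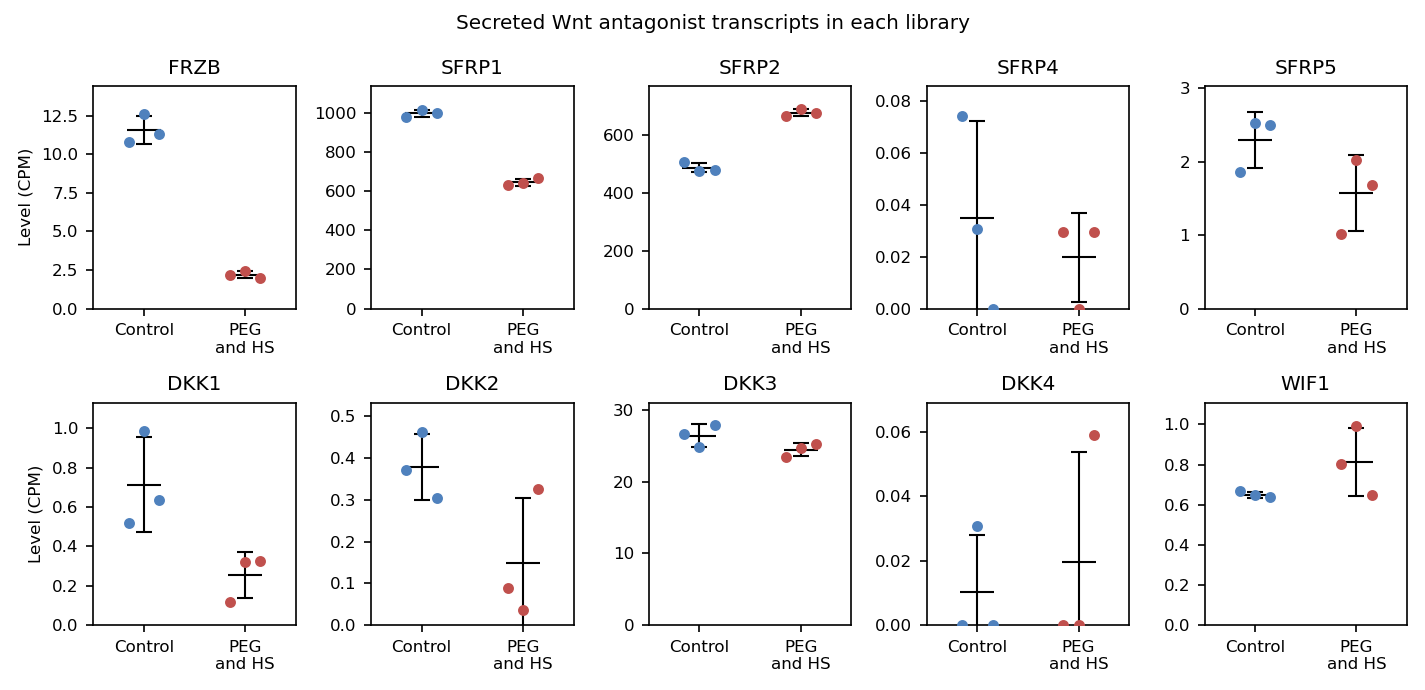
Level in CPM (linear vertical axis, its own scale in each panel) of the 10 secreted Wnt antagonist genes in the 3 Control (blue) and 3 PEG and HS (red) libraries, with the mean as a horizontal line and the SD as a vertical bar, cut at 0. FRZB, SFRP1, SFRP2 and DKK1 separate the media, with FRZB at 10.8 to 12.6 CPM in Control and 1.98 to 2.41 CPM in PEG and HS, whereas the panels of SFRP4 and DKK4 rest on 5 and 3 counts in all.

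SFRP1 and SFRP2 made up nearly all of the antagonist transcripts, with 97.1% to 97.9% of the counts on the 10 genes in each library. Both are ligand-binding antagonists that many embryonic and stromal tissues secrete. SFRP1 (ENSG00000104332) lies on the minus strand of chromosome 8 at 41261962 to 41309473 (GRCh38) and its canonical transcript has 3 exons. It was at 980, 1014 and 997 CPM in Control replicates 1, 2 and 3 and at 629, 640 and 666 CPM in PEG and HS replicates 1, 2 and 3. Each PEG and HS library was below each Control library, by far more than the spread within a medium, which was 3.0% of the mean in PEG and HS and 1.7% in Control. SFRP1 fell by 0.63 on the log2 scale (SE 0.027, 95% interval -0.69 to -0.57, adjusted p = 1.63e-10), a ratio of 0.647 to Control.

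SFRP2 (ENSG00000145423), the closest relative of SFRP1 in this family together with SFRP5, lies on chromosome 4 at 153780591 to 153789083, on the minus strand, with 3 exons. Its level moved the other way. It was at 505, 475 and 477 CPM in Control replicates 1, 2 and 3 and at 664, 687 and 674 CPM in PEG and HS replicates 1, 2 and 3. The media did not overlap, and SFRP2 rose 1.39-fold (log2 fold change 0.48, SE 0.028, 95% interval 0.41 to 0.54, adjusted p = 6.62e-09). Of the 16505 tested genes, 801 had a higher log2 fold change than SFRP2, and 1124 had a lower one than SFRP1.

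Levels of different genes were compared per kilobase of the canonical transcript (4.464 kb for SFRP1 and 1.996 kb for SFRP2). On this scale SFRP2 exceeded SFRP1 in every library. The ratio of SFRP2 to SFRP1 was 1.15, 1.05 and 1.07 in Control replicates 1, 2 and 3, close to equal, and 2.36, 2.40 and 2.27 in PEG and HS. The ratio thus lay between 1.05 and 1.15 in one medium and between 2.27 and 2.40 in the other.

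The family total combined these opposite changes. Summed over FRZB, SFRP1, SFRP2, SFRP4 and SFRP5, the level was 1497 ± 8.13 CPM (SD, n = 3) in Control and 1324 ± 24.9 CPM in PEG and HS, without overlap and with a ratio of 0.884. Per kilobase of transcript, where a read of the shorter SFRP2 transcript weighs more, the sum was 472 ± 4.76 in Control and 484 ± 8.23 CPM per kb in PEG and HS, and the libraries of the media overlapped. The direction of the family total therefore depended on the scale, while its members differed in direction on both. No p was computed for a sum over the members.

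**Figure D2:**
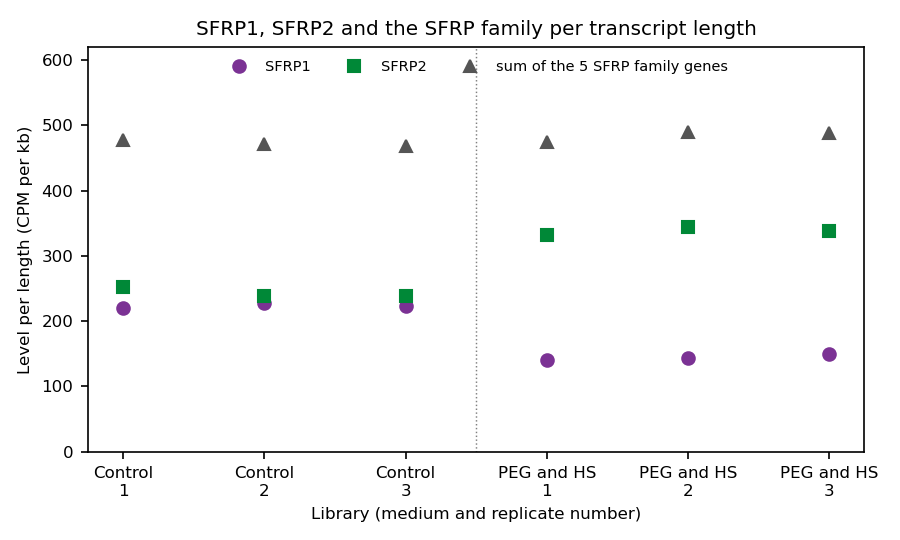
Level per transcript length (CPM per kb, linear vertical axis from 0) of SFRP1 (circles), SFRP2 (squares) and the sum of the 5 SFRP family genes (triangles) in each of the 6 libraries, named on the horizontal axis by medium and replicate. SFRP1 and SFRP2 lie close together in Control (220 to 227 and 238 to 253 CPM per kb) and apart in PEG and HS (141 to 149 and 333 to 344 CPM per kb), while the sum stays between 468 and 490 CPM per kb in all 6.

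FRZB (ENSG00000162998), also named SFRP3 and first described from cartilage, binds Wnt ligands and was the antagonist with the largest change. It lies on the minus strand of chromosome 2 at 182833275 to 182866637 and its transcript has 6 exons. It was at 10.8, 12.6 and 11.3 CPM in Control replicates 1, 2 and 3, from 291, 409 and 409 counts, and at 2.19, 2.41 and 1.98 CPM in PEG and HS replicates 1, 2 and 3, from 74, 68 and 67 counts. Every PEG and HS library was far below every Control library. FRZB fell by 2.41 on the log2 scale (SE 0.10, 95% interval -2.63 to -2.18, adjusted p = 1.65e-10), so that its level was 5.30-fold lower in PEG and HS, and 91 of the 16505 tested genes had a lower log2 fold change. It was also the 1 antagonist still called with a 1.5-fold change as the null (glmTreat of edgeR, adjusted p = 2.47e-09), as were 264 of all tested genes. Per kilobase, SFRP1 exceeded FRZB 47.6 to 53.7 times in Control and 157 to 199 times in PEG and HS.

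Genes were ranked by how closely their log2 CPM profile, centred on its own mean over the 6 libraries, followed that of FRZB, among 13556 other genes with a mean of at least 1 CPM. The 5 nearest were ID4, FEZF1, BMP2, OTX2 and BMP4, at Euclidean distances of 0.17, 0.23, 0.26, 0.27 and 0.29. ID4 encodes an inhibitor of basic helix-loop-helix factors, FEZF1 and OTX2 encode transcription factors of the forebrain, and BMP2 and BMP4 encode ligands of the TGF-beta family. ID4 was at 36.9 ± 2.22 CPM in Control and 8.47 ± 0.478 CPM in PEG and HS, FEZF1 at 19.8 ± 0.452 and 3.64 ± 0.311 CPM (SD, n = 3). The ranking describes 6 libraries that differ mainly by medium, and any gene with a fall of similar size comes near.

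Some marker genes of other cell types moved in the same libraries, where 13.1% of all tested genes were called lower and 12.2% higher. Of 11 neuroectoderm genes, 8 were called lower, and their summed level was 50.0 to 55.3 CPM in PEG and HS and 170.4 to 179 CPM in Control. None of the 11 was without counts, and OTX2, OLIG3 and LHX5 were the most abundant (18.6 ± 1.31, 9.14 ± 0.216 and 5.73 ± 0.880 CPM in PEG and HS against 79.4 ± 1.55, 28.1 ± 2.14 and 29.6 ± 1.66 CPM in Control). Of 7 mesenchyme and fibroblast genes, 4 were called lower and 3 were not called, with summed levels of 174 to 184 and 236 to 265 CPM. The most abundant, COL1A2, was at 98.4 ± 0.612 in PEG and HS and 103.9 ± 3.73 CPM in Control, and was not called (adjusted p = 0.0989, edgeR). COL1A1 was at 60.1 ± 3.02 in PEG and HS and 120.2 ± 5.23 CPM in Control, and COL3A1 at 8.87 ± 1.04 and 14.9 ± 4.36 CPM. PDGFRB, at 6.11 ± 0.425 and 5.95 ± 0.802 CPM, was not called. Of 9 trophectoderm and amnion genes, 7 were tested and 2, KRT7 and TFAP2A (1042 and 631 counts in all), were called lower, with summed levels of 6.97 to 7.36 and 14.9 to 15.97 CPM, and CGA had no count. The next most abundant, GABRP (382 counts), went the other way, at 2.29 ± 0.0996 in PEG and HS and 1.69 ± 0.214 CPM in Control. It was not called (log2 fold change 0.43, adjusted p = 0.0816, edgeR).

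Of 9 primitive streak and mesoderm genes, 7 were tested and 2 were called lower by edgeR, TBX6 from 694 counts and HAND1 from 16 (summed levels 5.91 to 6.12 CPM in PEG and HS and 6.40 to 7.84 CPM in Control), and MSGN1 had no count. DESeq2 called 1 gene of this list. MIXL1 (324 counts) went the other way, at 1.95 ± 0.207 in PEG and HS and 1.42 ± 0.286 CPM in Control. It was not called (log2 fold change 0.44, adjusted p = 0.122, edgeR), and neither was EOMES (77 counts). In definitive endoderm, no gene of the 4 tested was called by edgeR, DESeq2 or limma-voom, with 1, FOXA2 (437 counts in all), at an unadjusted p under 0.05 in edgeR (summed levels 3.11 to 3.32 and 4.02 to 4.67 CPM), and SOX17 had 2 counts in all. Of 6 neural crest genes, 1, SOX10, was called lower by edgeR, while limma-voom called 1 gene of this list and DESeq2 called 0. The sums were 149 to 151 and 149.8 to 150.7 CPM, nearly all of it from ERBB3. In bulk RNA, fewer cells of a type and less RNA per cell cannot be told apart, and the part of such cells in the changes of FRZB, SFRP1, SFRP2 and DKK1 was not tested.

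SFRP5 (ENSG00000120057, chromosome 10, 97766751 to 97771999, minus strand, 3 exons) was a minor member. It was at 1.85, 2.52 and 2.49 CPM in Control replicates 1, 2 and 3 and at 1.01, 2.02 and 1.68 CPM in PEG and HS. The media overlapped, with PEG and HS replicate 2 above Control replicate 1. The log2 fold change was -0.56 (SE 0.23, 95% interval -1.06 to -0.071) and the adjusted p from edgeR 0.09, so SFRP5 was not called. Without PEG and HS replicate 2 the adjusted p was 0.0388 (log2 fold change -0.77). SFRP4 (ENSG00000106483, chromosome 7, 37905932 to 38025695, minus strand) had 2 counts in PEG and HS and 3 in Control, which allows no comparison.

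Among the DKK genes, DKK3 held 94.4% to 99.1% of the counts of the family in each library. DKK3 (ENSG00000050165, chromosome 11, 11956207 to 12009769, minus strand, 7 exons in the canonical transcript) is the most divergent member of the family. It was at 26.7, 24.8 and 27.9 CPM in Control replicates 1, 2 and 3 and at 23.5, 24.7 and 25.3 CPM in PEG and HS. The media overlapped, and the log2 fold change of -0.11 (SE 0.055, adjusted p = 0.161) had a 95% interval of -0.23 to 0.0058. The log2 fold changes of SFRP1 and SFRP2 lie outside this interval.

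DKK1 (ENSG00000107984, chromosome 10, 52314281 to 52318042, plus strand, 4 exons), the inhibitor of LRP5 and LRP6, was present at under 1 CPM. It had 14, 32 and 23 counts in Control replicates 1, 2 and 3 (0.519, 0.985 and 0.637 CPM) and 4, 9 and 11 counts in PEG and HS (0.119, 0.319 and 0.325 CPM). No library of one medium reached into the other, although the replicates within a medium were far apart. DKK1 fell by 1.498 on the log2 scale (SE 0.43, 95% interval -2.42 to -0.58, adjusted p = 0.0186), and the call was lost without PEG and HS replicate 1 (adjusted p = 0.0827) or without Control replicate 2 (adjusted p = 0.101). Exons of DKK1 overlap PRKG1-AS1 and those of DKK3 overlap USP47, each on the opposite strand, and since the use of strand in counting is not given in the sources used here, reads of such partners cannot be told apart here.

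DKK2 (ENSG00000155011, chromosome 4, 106921802 to 107283806, minus strand, 4 exons), which also binds LRP6, had 10, 15 and 11 counts in Control and 3, 1 and 11 in PEG and HS replicates 1, 2 and 3. PEG and HS replicate 3 lay within the range of the Control libraries in CPM, and the other two below it. The log2 fold change of -1.27 (SE 0.59, 95% interval -2.52 to -0.013) was not called (adjusted p = 0.134, edgeR), and without PEG and HS replicate 3 it was -2.49 with an adjusted p of 0.0146. DKK4 (ENSG00000104371, chromosome 8, 42374063 to 42377229, minus strand) had 2 counts in PEG and HS and 1 in Control. WIF1 (ENSG00000156076, chromosome 12, 65050626 to 65121305, minus strand, 10 exons) was at 0.667, 0.646 and 0.637 CPM in Control and at 0.801, 0.991 and 0.650 CPM in PEG and HS. The WIF1 libraries overlapped, with a log2 fold change of 0.32 (SE 0.29, 95% interval -0.30 to 0.93, adjusted p = 0.478).

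**Figure D3:**
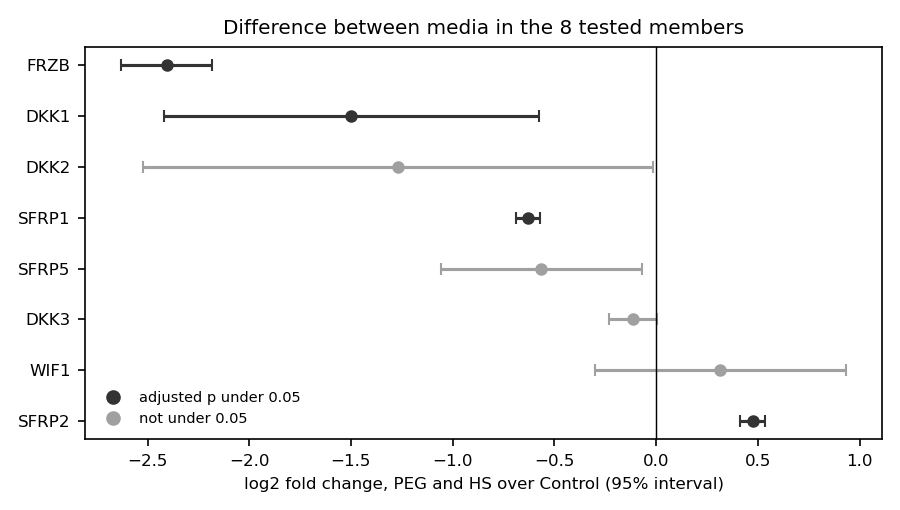
Log2 fold change of PEG and HS over Control (horizontal axis) with its 95% interval for the 8 tested antagonist genes, black where the adjusted p was under 0.05 and grey elsewhere. The intervals of FRZB (-2.63 to -2.18), SFRP1 and SFRP2 are narrow and far from 0, and those of DKK1, DKK2, SFRP5 and WIF1, which have few counts, are wide.

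Per kilobase of canonical transcript, the order of the levels in Control was SFRP2, SFRP1, DKK3 (10.5 ± 0.618 CPM per kb, SD, n = 3), FRZB (4.39 ± 0.350), SFRP5 (1.22 ± 0.201), DKK1 (0.395 ± 0.134), WIF1 (0.329 ± 0.00774) and DKK2 (0.104 ± 0.0216). In PEG and HS, SFRP5 (0.834 ± 0.273) and FRZB (0.832 ± 0.0809) stood side by side within their spread, below DKK3 (9.70 ± 0.359), and WIF1 (0.412 ± 0.0864) stood above DKK1 (0.141 ± 0.0650) and DKK2 (0.0410 ± 0.0422), and DKK1 and DKK2 overlapped within their spread. DKK1 and WIF1 did not differ beyond their spread in Control. The place of DKK3 depends on the length used, since its merged exons span 11.958 kb and its canonical transcript 2.525 kb, and on merged exons FRZB (4.39 CPM per kb) stood above DKK3 (2.21 CPM per kb) in Control.

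The bases just upstream of the transcription start are shown for FRZB, SFRP2 and DKK1, 3 genes that were called, to set a gene that fell beside one that rose. RefSeq sequence (GRCh38.p14) was at hand for 6 of the 10 members, FRZB, SFRP2, SFRP4, SFRP5, DKK1 and WIF1. The 250 bases before the start are chr2:182866638-182866887 (minus strand) for FRZB, chr4:153789084-153789333 (minus strand) for SFRP2 and chr10:52314031-52314280 (plus strand) for DKK1, and for these 3 genes the RefSeq start coincides with the GENCODE gene edge. Capitals mark 4 motifs searched on both strands: the TCF/LEF core words CTTTGA and CTTTGT, the TATA word TATAAA and the GC box GGGCGG, none of which overlapped another here.
FRZB: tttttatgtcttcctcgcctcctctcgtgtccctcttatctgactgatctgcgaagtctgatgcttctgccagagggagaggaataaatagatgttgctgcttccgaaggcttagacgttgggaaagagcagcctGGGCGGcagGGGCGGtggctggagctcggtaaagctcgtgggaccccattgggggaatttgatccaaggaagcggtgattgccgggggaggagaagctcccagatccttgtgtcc
SFRP2: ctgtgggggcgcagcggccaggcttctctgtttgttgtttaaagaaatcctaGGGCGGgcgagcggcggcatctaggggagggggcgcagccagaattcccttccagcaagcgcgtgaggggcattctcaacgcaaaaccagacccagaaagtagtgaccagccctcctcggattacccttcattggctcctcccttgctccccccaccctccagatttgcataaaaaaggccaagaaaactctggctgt
DKK1: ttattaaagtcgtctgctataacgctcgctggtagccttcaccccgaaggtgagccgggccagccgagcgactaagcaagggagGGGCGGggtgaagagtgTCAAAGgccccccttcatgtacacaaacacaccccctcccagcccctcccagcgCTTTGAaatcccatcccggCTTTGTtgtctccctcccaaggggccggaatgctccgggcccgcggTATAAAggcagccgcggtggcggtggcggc

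The DKK1 window held 2 CTTTGA words, which start 149 bases (on the opposite strand) and 95 bases before the transcription start, 1 CTTTGT word at 76 bases and 1 TATAAA word at 30 bases. CTTTGA was found in 11.2%, CTTTGT in 13.7% and TATAAA in 10.7% of 35116 windows of this length. The FRZB window held 2 GC boxes, at 115 and 106 bases, the SFRP2 window 1, at 198 bases, and the DKK1 window 1, at 166 bases. This word occurred in 42.6% of all windows. No match of the other 3 words was present in the FRZB and SFRP2 windows, which says only that these letters are not there. CpG pairs numbered 11 in FRZB, 11 in SFRP2 and 18 in DKK1, with a median of 11 over all windows. By GENCODE 44, none of the 31-base words in the transcripts of the 10 genes occurs in transcripts of another gene (0%).

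The receptors on which the antagonists act were measured in the same libraries. Calls in this list and the Wnt lists below stand beside 13.1% of all tested genes called lower and 12.2% higher. Of 17 tested receptors and co-receptors, 9 were called lower in PEG and HS by edgeR (median log2 fold change of the list -0.21), and 8 were called by DESeq2 and 8 by limma-voom. The most abundant, FZD7, was at 271 ± 1.16 in Control and 207 ± 2.51 CPM with the additives (a log2 difference of -0.39, SE 0.026, adjusted p = 1.89e-08, edgeR), and PTK7, a co-receptor of Wnt signalling in cell polarity, fell from 210 ± 3.14 to 181.7 ± 6.23 CPM. ROR1, a receptor for WNT5A, was at 150.2 ± 0.784 in Control and 143 ± 2.10 CPM in PEG and HS (adjusted p = 0.0831). The receptors of DKK1 were singled out after their values were seen. LRP6 was at 121 ± 3.53 in Control and 119 ± 1.62 CPM in PEG and HS (adjusted p = 0.611, 95% interval of the log2 fold change -0.091 to 0.041) and LRP5 at 75.4 ± 1.25 and 78.2 ± 1.25 CPM (adjusted p = 0.241, interval -0.013 to 0.12). KREMEN1 and KREMEN2 were called lower, with log2 fold changes of -0.25 (SE 0.086, adjusted p = 0.0487, edgeR) and -0.39 (SE 0.12, adjusted p = 0.0234). The value of KREMEN1 is just under the limit.

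Wnt ligands were present at low levels. Of 15 tested ligands, 5 were called lower and 1 higher by edgeR, and 2 were called by DESeq2. WNT5A, the most abundant, was at 8.99 ± 0.406 in Control and 7.96 ± 0.267 CPM in PEG and HS (adjusted p = 0.107), WNT9A at 2.94 ± 0.288 and 2.25 ± 0.307 CPM (adjusted p = 0.0949), and WNT5B rose from 2.03 ± 0.232 to 3.06 ± 0.406 CPM (adjusted p = 0.0133, edgeR). Summed over the 19 ligands, the level was 22.6 to 23.5 CPM in Control and 18.9 to 20.2 CPM in PEG and HS, without overlap.

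Of 10 genes of beta-catenin feedback and response, 3 were called lower and 2 higher. The 2 called higher were NKD1 and NKD2, with log2 fold changes of 0.30 and 0.36 (adjusted p = 0.00252 and 0.00534, edgeR). AXIN2, a feedback inhibitor widely used as a readout of beta-catenin activity, was lower (59.1 ± 1.60 in Control, 48.9 ± 0.987 CPM with the additives, a log2 difference of -0.27, SE 0.037, adjusted p = 5.59e-05, edgeR), and ZNRF3 and TCF7 had log2 fold changes of -0.032 and -0.021 (adjusted p = 0.687 and 0.824). Of 17 genes of Wnt secretion and signal transduction, 6 were called lower and 2 higher, where 13.1% of all tested genes were called lower and 12.2% higher. CTNNB1, which encodes beta-catenin, was at 532 ± 9.02 in Control and 511 ± 7.70 CPM in PEG and HS (adjusted p = 0.115), CSNK1A1 rose by 0.079 on the log2 scale (adjusted p = 0.0337), and TCF7L1 had a log2 fold change of -0.016 (adjusted p = 0.742).

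Other inhibitors act at the cell surface or outside the cell. Of 12 tested, IGFBP4, a binding protein of insulin-like growth factors that also inhibits Wnt signalling, rose from 92.6 ± 1.88 to 107.9 ± 2.38 CPM (adjusted p = 8.23e-05, edgeR), and 1 was called lower, SHISA3. TPBG and SHISA2 had log2 fold changes of -0.060 and -0.11 (adjusted p = 0.304 and 0.1). Of 6 R-spondin genes and receptors, LGR4 was called lower (149.7 ± 5.72 to 87.4 ± 1.93 CPM, log2 fold change -0.78), and RSPO4 and LGR6 had adjusted p of 0.752 and 0.874. The median log2 fold change was 0.0094 in the 12 inhibitors, -0.64 in the 6 R-spondin genes and receptors and -0.60 in the 8 tested secreted antagonists. That of the R-spondin list falls between RSPO2 and RSPO3, which had 80 and 70 counts in all and were not called. In the lists of ligands, receptors, feedback genes and transducers the median log2 fold change lay between -0.21 and -0.071. Among the cell type lists, it was lower in neuroectoderm (-1.17), trophectoderm and amnion (-0.92) and mesenchyme (-0.74) than in the antagonists, and higher in the remaining lists.

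**Figure D4:**
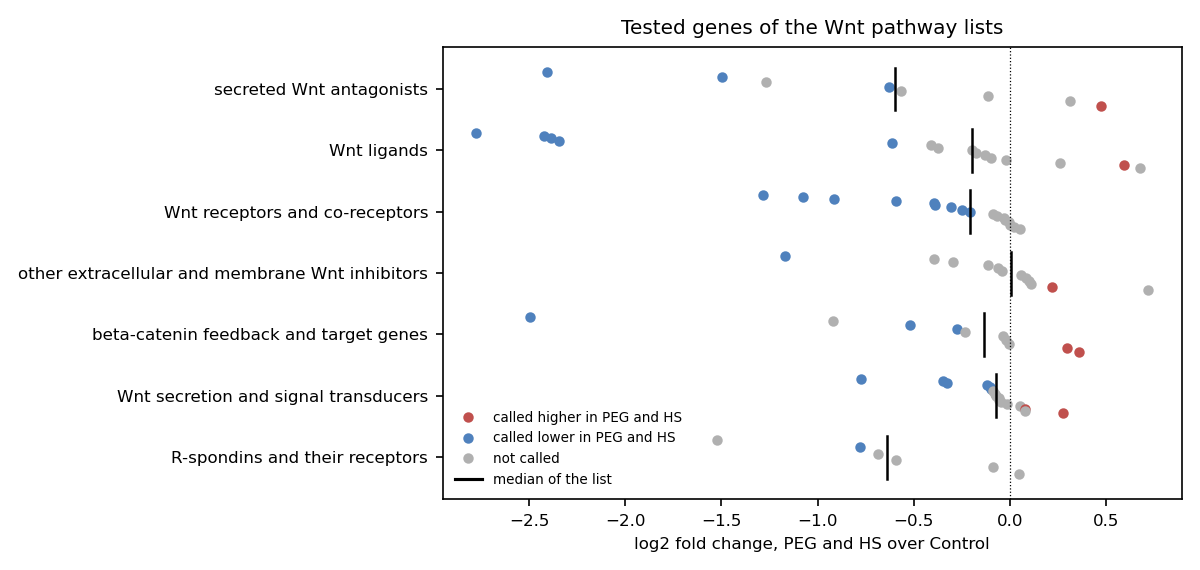
Log2 fold change of PEG and HS over Control (horizontal axis) of each tested gene, a point each, in the secreted Wnt antagonists and 6 other lists of the Wnt pathway, with the list median as a black line; red and blue points were called higher and lower and grey points were not called. The antagonists range from FRZB at -2.41 to SFRP2 at 0.48, and calls in both directions also occur among the ligands, the other inhibitors, the feedback genes and the transducers.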

How the data were processed

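Bulk RNA of 3 PEG and HS and 3 Control samples was sequenced. The authors trimmed reads with Trim Galore 0.6.7, mapped them to GRCh38 with STAR 2.6.1 in an nf-core pipeline and deposited raw counts per gene, 1 library each. The counting tool, its strand setting, its treatment of multi-mapped reads and the annotation release are not given in the sources used here. Of 19977 identifiers, 19916 matched GENCODE 44.

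Testing took genes whose 6 libraries summed to 10 counts or more and used edgeR 4.0.16 in R 4.3.3 (TMM, glmQLFit, glmQLFTest, no covariate, two-sided), with Benjamini-Hochberg adjustment. SE was obtained by dividing the absolute log2 fold change by the root of F. For a single gene, 3 against 3 libraries allow no exact permutation p below 0.1. Intervals cover the spread between libraries only. The common biological coefficient of variation was 3.12%, and within a medium no 2 libraries agreed to within sampling noise (chi-square over degrees of freedom, 2.58 to 3.52).

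Members and gene lists were chosen with earlier results of these data known. Named from each list were the 3 genes with the highest mean CPM, and the 5 genes nearest to FRZB (log2 of CPM plus 0.5), and any further list gene was picked with its values known. Alternatives were DESeq2 1.42.0, limma-voom (limma 3.58.1), 3 other scalings, 2 other filters, a replicate block, each library left out and a 1.5-fold null. On simulated counts for this comparison (16505 genes), edgeR recovered 100% of 100 genes changed 2-fold and 94% of 100 changed 1.5-fold, and 4.9% of its calls were false. The changed genes were drawn from those with a mean of at least 1 CPM, and all genes shared the same simulated variation. These rates therefore do not cover DKK1, DKK2 and WIF1, which had means of 0.48, 0.26 and 0.73 CPM.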

Additional observations from a re-analysis of the deposited data

How the results depend on the processing

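FRZB, SFRP1 and SFRP2 were called in the same direction in each of 14 alternatives (log2 fold changes of -2.47 to -2.34, -0.65 to -0.61 and 0.46 to 0.50), and DKK3 and WIF1 were called in none of them (-0.16 to -0.070 and 0.16 to 0.46). The other members rest on few counts, and 1 library decided their calls. With each library left out in turn, DKK1 ranged from -1.74 to -1.15, SFRP5 from -0.77 to -0.32 and DKK2 from -2.49 to -0.86, and the number of antagonists called was 3 to 5, of all genes 3114 to 3674 and of the Wnt pathway lists 22 to 27 (31 with all libraries). DKK2 had no adjusted p in DESeq2, which called 3398 genes and the same number of antagonists, 4. Tested against a 1.5-fold change, 264 genes were called (30 higher and 234 lower, against 4173 tested against 0) and 1 antagonist, FRZB, as the larger null itself requires. With the replicate block, SFRP5 was called (log2 fold change -0.57, adjusted p = 0.0402), as were 5 antagonists and 4444 genes. The numbers are not shown to pair the samples, since the deviations of same-numbered libraries correlated at only 0.023 to 0.046 across genes. The log2 ratio of the summed SFRP family was -0.18 in CPM, 0.036 per kilobase of canonical transcript and 0.051 per kilobase of merged exons, and that of the DKK family -0.15 in CPM and -0.25 per kilobase of merged exons (a length chosen after seeing the data), since long and short transcripts are weighted differently. With a library left out these 2 sums ranged from -0.19 to -0.16 and from -0.18 to -0.11 in CPM. Depth limits SFRP4 and DKK4, with 5 and 3 counts.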
